A study of Arabidopsis thaliana with 15 samples.

Results

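Genes whose expression rose at each step from early through middle to late stomatal precursors are described here. The set took every probe set listed to 1 gene whose mean log2 value was at least 1 higher in middle than in early precursors. It also had to be at least 1 higher in late than in middle precursors. The set was thus chosen by the early, middle and late precursor means of these same arrays. Of all 20956 probe sets, 244 met both conditions (1.16%). Among the 12783 listed to 1 gene there were 118 of them, and 7 were left out by name (FAMA, listed as FMA, GT72B1, CHX20, ALDH3F1, AT1G04800 and the ATG8 family genes APG8A and ATG8H). The remaining 111 probe sets stand for 111 different genes, 17 of which carry a symbol beyond the locus code.

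Expression was measured on 15 Affymetrix ATH1 arrays of fluorescence-sorted protoplasts from Arabidopsis thaliana, 3 arrays for each of 5 populations, all in the Col background. Seedlings were 14 days old, grown at 25 °C with 16 hours of light and 8 hours of darkness on 1% sucrose, and the aerial parts were digested for 2 hours. Early precursors (SPCHp::SPCH-YFP) were described as the mother cells of meristemoids together with young meristemoids. Middle precursors (MUTEp::nucGFP) were meristemoids of a later age and young guard mother cells. Late precursors (FAMAp::GFP-FAMA) were guard mother cells near their division and recently formed guard cells. Mature guard cells were sorted with the enhancer trap E1728::GFP, and the whole epidermis with ML1p::YFP-RCI2A. Stage cannot be told apart from reporter line, since each population was sorted from a different one, and 2 of the reporters add SPCH or FAMA fusion protein to the cells. Each replicate held 2000 to 20000 cells. In such pools, fewer cells of a type and less RNA per cell cannot be told apart.

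Guard cells arise by a short series of divisions in the leaf epidermis. The basic helix-loop-helix factor SPCH starts the asymmetric divisions, its relative MUTE ends them and makes a guard mother cell, and FAMA limits the last symmetric division and sets guard cell fate. As the guard cells form, they lay down flexible thickened walls and build the transport and signalling systems that open and close the pore.

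The same regulators were read in the sorts. The early and late lines carry SPCH and FAMA as transgenes, whose transcripts the probe sets may also read, so high values there are no independent check of those sorts. On the log2 scale of all levels here, SPCH averaged 9.11 ± 0.10 in early precursors and at most 4.1 ± 0.63 in the other populations, and FAMA was highest in late precursors at 10.11 ± 0.26 (SD, n = 3). MUTE, whose promoter marks the middle sort, was at or below 2.68 in every population mean, also in middle precursors (2.37 ± 0.43). The value 2.68, the highest of the 15 array medians, is used here as the bound below which a mean is read as near the background, and folds against such a mean are lower limits, written with "at least". Of the measured guard cell genes outside the set, CHX20 (10.03 ± 0.13), GC1 (9.07 ± 1.08), PME6 (5.3 ± 0.23) and BLUS1 (2.63 ± 0.47, below the bound) had their highest mean in late precursors. The remaining measured one, PATROL1, was highest in middle precursors (5.81 ± 0.78), with 5.09 ± 0.44 in late precursors. None of the 12 listed epidermis and cuticle markers had a probe set of 1 gene, so the epidermis sort was not checked. Whether replicates came from separate cultures is not stated, so p-values measure the spread between these arrays.

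The 111 genes spanned a wide range of levels. Their early precursor means ran from 1.87 to 8.09 with a median of 4.04, and 15 of the 111 were at or below the bound there. Median levels were 5.64 in the middle sort, 7.2 in the late sort, 6.72 in mature guard cells and 5.68 in whole epidermis. Over all probe sets listed to 1 gene, the medians lay between 2.38 and 2.57 in all 5 populations. The early, middle and late values chose the set, so its rise is a description and carries no test. The first step was the larger of the pair in 74 genes and the second in 37, with medians of 1.53 and 1.31 on the log2 scale.

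**Figure D1:**
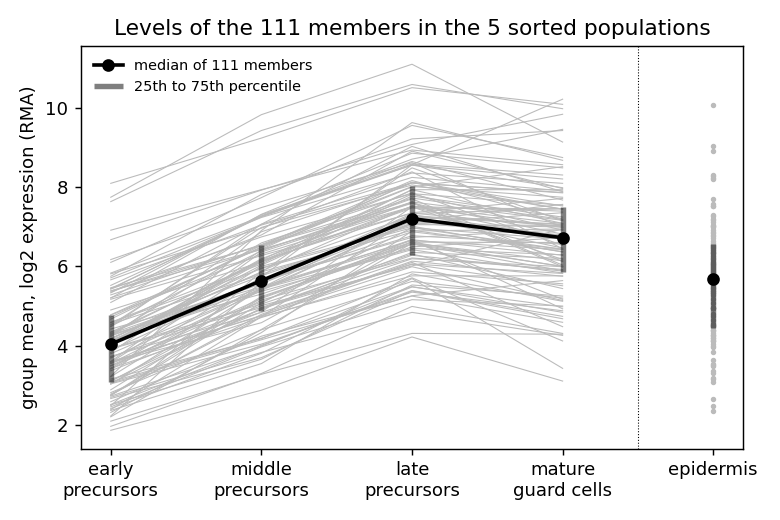
Group mean log2 expression (RMA) of the 111 genes in 4 lineage stages (grey lines) and in the epidermis (grey points, right of the dotted line). Black points are the medians and thick bars run from the 25th to the 75th percentile. The median climbs to 7.2 in late precursors, stands at 6.72 in mature guard cells, and is 5.68 in the epidermis.

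In 90 of the 111 genes no array overlapped at either step, so that all 3 early arrays lay below all 3 middle arrays and these below all 3 late arrays. Among all probe sets the share was 2.89%, and since the rule used these arrays nothing is read from the difference. Early and middle arrays overlapped in 17 genes and middle and late arrays in 8. Early precursors were also the most scattered population for the set, with a median SD of 0.66, next to 0.33 in the middle sort, 0.34 in the late sort, 0.40 in mature guard cells and 0.54 in whole epidermis. Over all probe sets the early arrays were likewise the most scattered, with a median SD of 0.32 and at most 0.24 in the other populations. The choice of members leaned on single arrays: 51 of the 111 met the rule in all 9 selections that left out 1 early, middle or late array. Just inside the threshold, the smaller step was 1.002 for AT5G62360, 1.002 for AT5G39590 and 1.005 for GRXC2. Just outside it were AT5G16960 at 0.993, AT2G05540 at 0.992 and AT1G55530 at 0.988.

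The widest climb was that of AT4G02940, a gene named only by its locus in the annotation. It had 2.40, 3.85 and 3.44 in the early sort, 6.90, 7.08 and 6.71 in the middle sort, 9.31, 9.71 and 9.84 in the late sort, 9.09, 8.85 and 8.06 in mature guard cells, and 6.72, 7.09 and 5.95 in whole epidermis. No early, middle or late array overlapped with one of another stage, and late precursors stood 83.9-fold above early precursors. Next by the difference between late and early means came AT3G05730 (5.13 on the log2 scale), AT4G24130 (5.1), AT2G22320 (5.03) and AT1G33811 (4.85), followed by AT1G55210 (4.57), AT5G25930 (4.55), AT5G12340 (4.36), AT4G25900 (4.3), EXLA1 (4.22), AT1G68620 (4.13) and PDF1.4 (4.04). The early means of AT4G24130, AT2G22320, AT1G33811, AT1G55210 and AT5G12340 were at or below the bound, so their differences are lower limits. The smallest climb in the set was that of GRXC2, at 2.03.

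The mature guard cell and epidermis arrays took no part in choosing the genes, so the comparison of these populations is the one that can be tested. It asks whether genes that climb through the precursor stages are also higher in finished guard cells than in the epidermis as a whole. Of the 111 genes, 20 were higher in mature guard cells (18.0%) and 1 was lower (0.901%), by limma's moderated test with Benjamini-Hochberg adjustment over all 20956 probe sets. Among all probe sets the shares were 2.29% higher and 1.62% lower, 480 and 340 probe sets. With probe sets left out whose 5 population means were all at or below the bound, which took none of the 111, 21 of the 111 were higher (4.07% of the 12383 probe sets kept) and 1 lower (2.09% of them). The share was also taken over the 6868 other probe sets of 1 gene with a population mean above the bound, where 3.09% were higher and 2.52% lower.

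The direction was shared widely among the 111 genes. The mature mean was above the epidermis mean in 106 of them (95.5%), against 44.0% of all probe sets and 56.4% of the 6868. The median difference was 0.98 on the log2 scale for the set, -0.06 for all probe sets and 0.10 for the 6868. All 3 mature arrays lay above all 3 epidermis arrays in 61 genes (12.7% of all probe sets) and below them in 2 (17.1% of all probe sets), and the arrays overlapped in 48.

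The count of 20 depended on single arrays and on scaling. The share of all probe sets called higher moved with it and stands here in brackets. The count was 11 without mature guard cell replicate 1 (1.06%), 11 without replicate 2 (1.24%) and 17 without replicate 3 (2.0%). Without epidermis replicates 1, 2 and 3 in turn it was 12 (1.44%), 27 (2.51%) and 10 (1.01%). It was 12 after cyclic loess (1.54%), 13 after quantile normalization (1.48%), 41 without the early precursor arrays (5.45%) and 32 with array weights (4.02%). With only the mature and epidermis arrays in the fit, which leaves out every array of the rule, it was 16 (1.83%), 12 of them among the 20. Over all probe sets, 58.5% of the calls were higher in mature guard cells, against 43.2% after cyclic loess and 46.9% after quantile normalization.

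**Figure D2:**
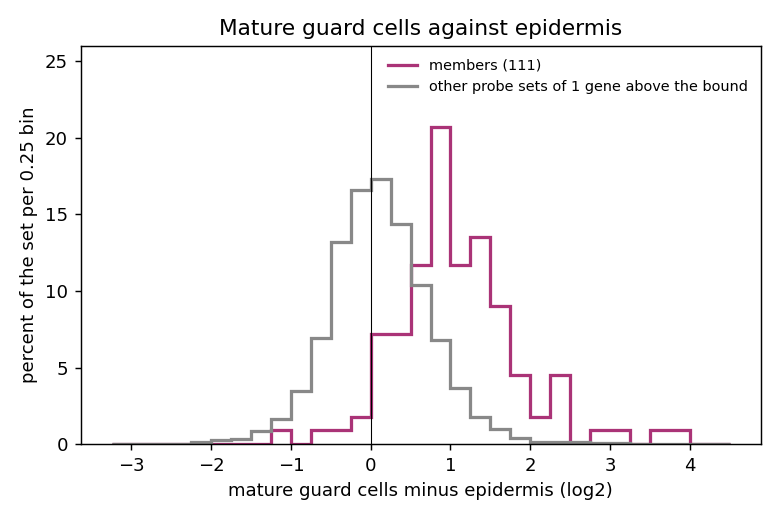
Distribution of the log2 difference, mature guard cells minus epidermis, as the percent of each set per bin of 0.25. The 111 genes (purple) have a median of 0.98, and 6868 other probe sets of 1 gene with a population mean above the bound (grey) a median of 0.10.

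The 4 measured genes of the mesophyll and photosynthesis list, RCA, PSAE-1, SBPASE and PRK, are nuclear genes for chloroplast proteins. They had all mature arrays below all epidermis arrays (17.1% of all probe sets), with a median difference of -1.81. There were 0 calls by limma (adjusted p from 0.0741 to 0.206). Unadjusted, 4 of 4 were under 0.05 by limma, as were 4294 of all 20956 probe sets. The summed level of the 4 genes on the linear scale was 869 to 1634 in mature guard cells and 3309 to 5344 in whole epidermis. Its part in the result was not tested. The trichome gene TRY and the phloem gene SWEET11, each the single measured gene of its list, had means at or below the bound in both populations. Of the 2 measured genes for dividing cells, AUR1 was also at or below the bound in both, and AUR2 averaged 3.07 ± 0.80 in mature guard cells and 3.34 ± 0.29 in whole epidermis (SD, n = 3). CML38, the measured gene of the wounding list, averaged 8.55 ± 0.09 in mature guard cells and 9.1 ± 0.12 in whole epidermis.

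The 12 greatest called rises in mature guard cells over the epidermis were led by AT1G33811. Its values were 2.81, 2.53 and 1.83 in the early sort, 3.94, 5.36 and 4.88 in the middle sort, 6.29, 7.71 and 7.72 in the late sort, 7.08, 7.14 and 6.94 in mature guard cells, and 3.62, 2.64 and 3.23 in whole epidermis. The late and mature arrays overlapped, and both populations stood clear of the rest. Mature guard cells were 14.8-fold above the epidermis (log2 difference 3.89, SE 0.44; adjusted p = 0.000597 by limma). AT2G22320 followed at 7.37, 7.18 and 6.68 in mature guard cells and 3.45, 3.99 and 2.64 in whole epidermis, a 13.2-fold difference (adjusted p = 0.000365 by limma). AT1G79910 had 7.21, 6.87 and 6.91 in mature guard cells and 4.68, 3.03 and 3.85 in whole epidermis (8.83-fold, adjusted p = 0.000597 by limma). Mature and epidermis arrays overlapped in none of AT1G33811, AT2G22320 and AT1G79910.

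AT2G29995 had 8.09, 7.82 and 7.65 in mature guard cells and 5.34, 5.29 and 4.21 in whole epidermis (7.52-fold, adjusted p = 0.00991 by limma). AT4G24130 had 8.09, 7.47 and 6.80 in mature guard cells and 5.35, 5.02 and 4.51 in whole epidermis (5.64-fold, adjusted p = 0.000686 by limma). In both genes every mature array lay above every epidermis array.

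AT4G35070 averaged 6.68 ± 0.59 in mature guard cells and 4.26 ± 0.40 in whole epidermis, and AT5G07870 averaged 4.74 ± 0.51 and 2.35 ± 0.28 in the same order (SD, n = 3; 5.34-fold and at least 5.26-fold). AT4G02940 was 4.24-fold higher in mature guard cells (adjusted p = 0.0112 by limma), a call lost without mature guard cell replicate 1 (0.0567) or epidermis replicate 3 (0.0538). In all, 10 of the 20 rises were called in each of the 16 alternative fits: AT1G33811, AT2G22320, AT1G79910, AT2G29995, AT4G24130, AT4G35070, AT5G07870, AT5G16450, EXPA16 and SGP1. AT5G16450, outside the 12 greatest, was named after its values were seen and rose by 1.23 on the log2 scale (adjusted p = 0.00582 by limma).

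**Figure D3:**
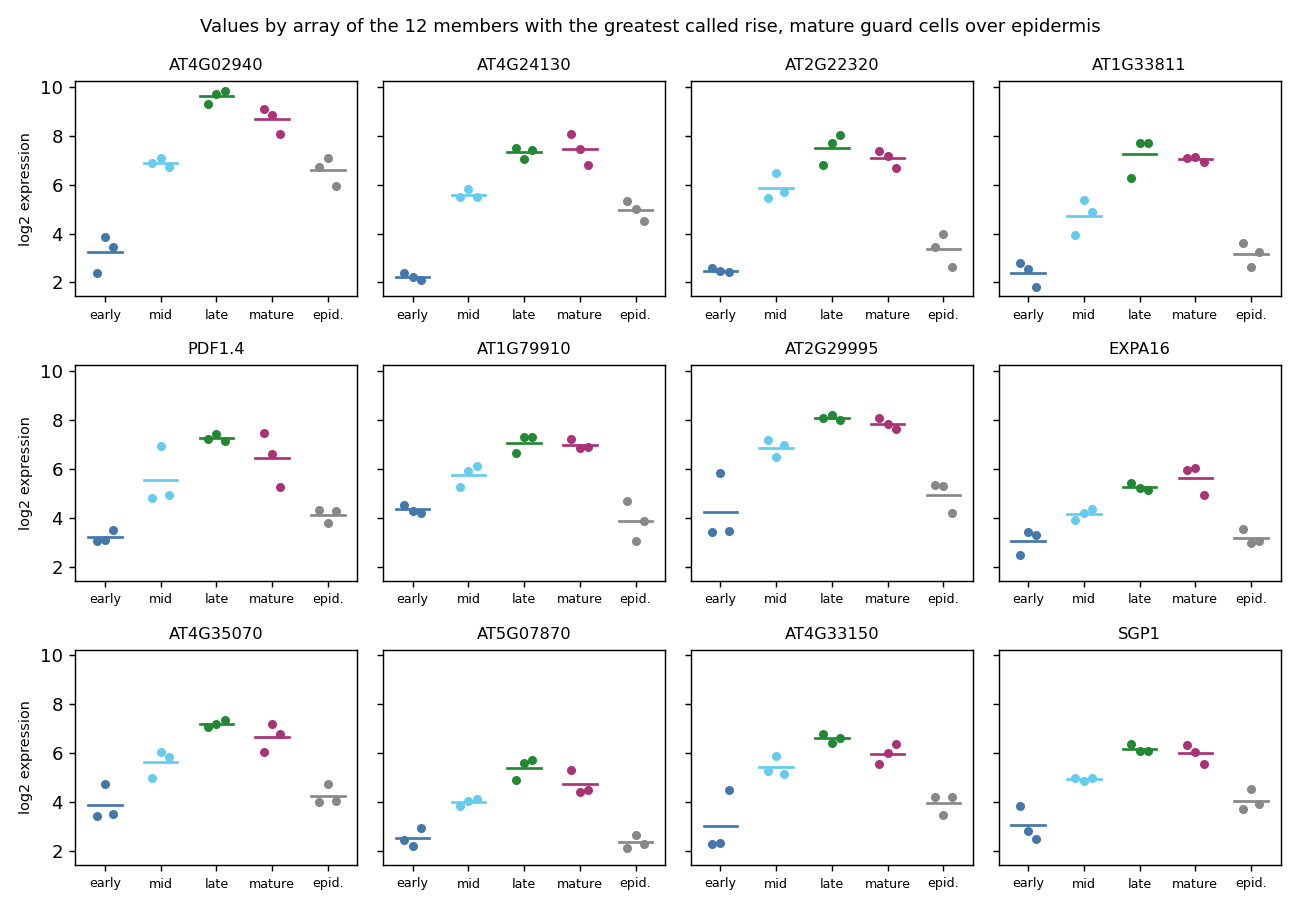
Log2 expression on each of the 15 arrays (points) with the mean of each population (bars) for the 12 genes of the set with the greatest called rise in mature guard cells over the epidermis. All mature arrays lie above all epidermis arrays in each of the 12 genes.

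AT5G28630 was the single gene of the set called lower in mature guard cells than in the epidermis. The mature mean was also below the epidermis mean in AT1G03740, AT1G34300, AT1G63840 and AT2G47550, named after their values were seen, and in AT1G03740 all mature arrays were below all epidermis arrays. AT5G28630 had 4.66, 4.66 and 4.68 in the early sort, 6.41, 6.40 and 6.80 in the middle sort, 7.50, 7.75 and 7.92 in the late sort, 7.13, 7.44 and 6.96 in mature guard cells, and 8.95, 7.84 and 8.10 in whole epidermis. It climbed through the precursors like the others, yet every lineage mean stayed below that of the epidermis. The difference was -1.12 (SE 0.25; adjusted p = 0.027 by limma), a call lost with only the mature and epidermis arrays in the fit (0.111), with a trended robust prior (0.0715), and without mature guard cell replicate 1 (0.0905) or 3 (0.0756) or epidermis replicate 1 (0.0511) or 3 (0.0584).

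Among the genes with a symbol, those for proteins of the cell wall and the cell surface were EXPA16, EXLA1 and PDF1.4. Genes known by locus code only were not grouped by function. EXPA16 encodes an α-expansin, a protein that loosens the wall. Its values were 2.48, 3.41 and 3.29 in the early sort, 3.91, 4.19 and 4.36 in the middle sort, 5.44, 5.20 and 5.14 in the late sort, 5.94, 6.05 and 4.94 in mature guard cells, and 3.53, 2.97 and 3.04 in whole epidermis. The early and epidermis arrays overlapped, as did the late and mature arrays, and mature guard cells stood 5.5-fold above the epidermis (adjusted p = 0.00113 by limma).

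EXLA1 encodes an expansin-like protein of the wall. It had 2.66, 3.08 and 2.50 in the early sort, 4.80, 5.55 and 4.89 in the middle sort, 6.56, 7.04 and 7.32 in the late sort, 6.29, 7.78 and 5.98 in mature guard cells, and 5.23, 6.41 and 3.89 in whole epidermis. Mature and epidermis arrays overlapped, and the difference of 1.51 (SE 0.56) was not called (adjusted p = 0.155 by limma). PDF1.4, a small cysteine-rich protein of the plant defensin family, had 3.05, 3.09 and 3.52 in the early sort, 4.81, 6.94 and 4.93 in the middle sort, 7.22, 7.41 and 7.15 in the late sort, 7.47, 6.62 and 5.28 in mature guard cells, and 4.33, 3.78 and 4.27 in whole epidermis. Middle replicate 2 stood apart from the other middle arrays of PDF1.4. Its rise over the epidermis was 5.03-fold (adjusted p = 0.0374 by limma), and the call was lost in 10 of 16 alternative fits, where leaving out mature replicate 1 gave 0.141, mature replicate 2 gave 0.116, and epidermis replicates 1, 2 and 3 gave 0.0713, 0.0798 and 0.101.

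Among the genes with a symbol, those tied to glutathione, detoxification and metal binding were GR1, GRXC2, UGT73B4 and MT1C. GR1 encodes a glutathione reductase, which regenerates reduced glutathione. It had 3.27, 2.34 and 5.13 in the early sort, 5.81, 6.18 and 6.0 in the middle sort, 6.61, 7.05 and 7.37 in the late sort, 6.24, 6.32 and 6.52 in mature guard cells, and 6.39, 5.93 and 5.81 in whole epidermis. Early replicate 3 lay more than 1 above the other early arrays, and the mature and epidermis arrays overlapped (adjusted p = 0.757 by limma). GRXC2, a glutaredoxin that uses glutathione to reduce disulfides, averaged 6.91 ± 0.61, 7.93 ± 0.10, 8.93 ± 0.45 and 8.56 ± 0.26 along the lineage and 8.2 ± 0.47 in the epidermis (SD, n = 3).

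UGT73B4, a glycosyltransferase that acts on small molecules, averaged 5.09 ± 0.41 in early, 7.06 ± 0.08 in middle and 8.24 ± 0.54 in late precursors. It averaged 7.9 ± 0.09 in mature guard cells and 7.29 ± 0.45 in whole epidermis (SD, n = 3). MT1C encodes a metallothionein, a small protein that binds metal ions. Its values were 5.85, 4.20 and 6.26 in the early sort, 7.84, 6.90 and 7.07 in the middle sort, 8.22, 8.85 and 9.03 in the late sort, 10.58, 9.15 and 8.64 in mature guard cells, and 8.53, 7.62 and 6.60 in whole epidermis. MT1C was among the few genes of the set with a mature mean above the late mean. Every mature array of MT1C lay above every epidermis array, and the difference of 1.87 (SE 0.62) was not called (adjusted p = 0.112 by limma).

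Other metabolic enzymes described here are FDH and HL, which carry a symbol, and LKR/SDH, named by a synonym. AT4G33150 (LKR/SDH) encodes the bifunctional enzyme that starts lysine breakdown. It had 2.27, 2.31 and 4.50 in the early sort, 5.29, 5.90 and 5.13 in the middle sort, 6.78, 6.41 and 6.64 in the late sort, 5.56, 6.01 and 6.39 in mature guard cells, and 4.19, 3.49 and 4.19 in whole epidermis. Early replicate 3 again lay far above the other early arrays. Across the 111 genes the highest early array was replicate 3 in 45, replicate 1 in 38 and replicate 2 in 28. Mature guard cells were 4.09-fold above the epidermis (adjusted p = 0.0392 by limma), a call lost in 9 of 16 alternative fits, with values from 0.069 (epidermis replicate 1 left out) to 0.111 (mature replicate 2 left out) among those without 1 array and 0.143 after quantile normalization.

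FDH, the formate dehydrogenase gene, showed the same early pattern, with 2.23, 2.20 and 3.86. It then had 4.81, 4.71 and 4.85 in the middle sort, 5.84, 6.29 and 6.25 in the late sort, 6.08, 5.56 and 5.61 in mature guard cells, and 4.16, 5.24 and 3.81 in whole epidermis. Mature and epidermis arrays of FDH did not overlap, though the difference of 1.35 (SE 0.42) was not called (adjusted p = 0.096 by limma). HL, a HAL2-like phosphatase of nucleotide by-products of sulfate assimilation, had 3.01, 2.63 and 2.62 in the early sort, 5.38, 5.42 and 4.82 in the middle sort, 6.21, 6.69 and 6.93 in the late sort, 6.62, 6.61 and 6.56 in mature guard cells, and 6.39, 6.34 and 5.22 in whole epidermis. Its mature arrays were almost equal to each other and close to the late mean.

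**Figure D4:**
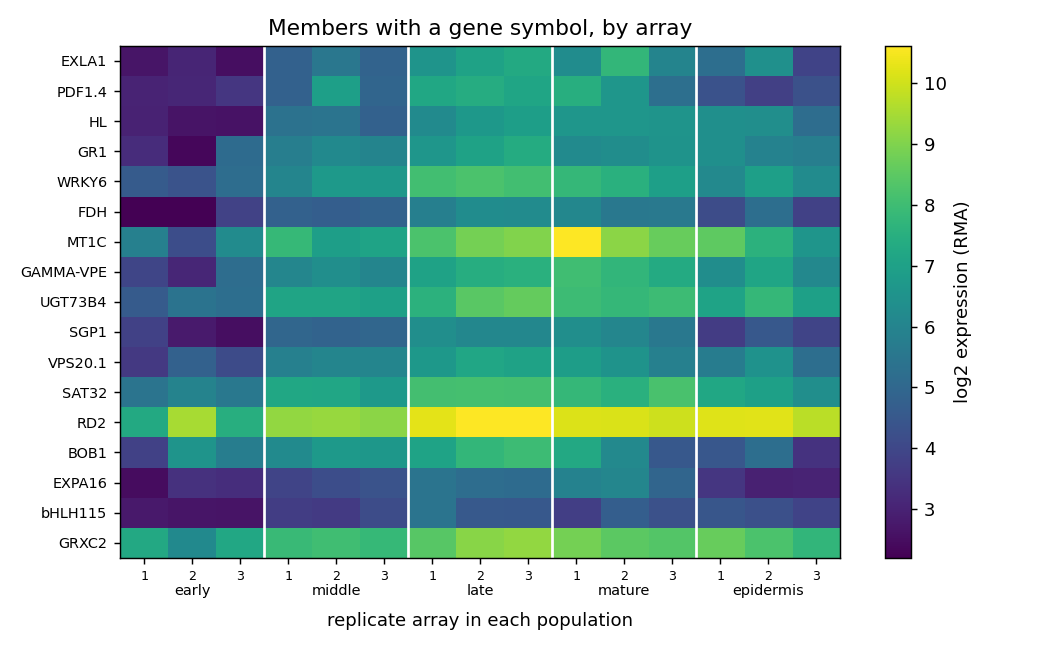
Log2 expression (colour) on each of the 15 arrays for the 17 genes of the set that carry a symbol, ordered by the difference between late and early precursor means. Columns are replicate arrays 1 to 3 within each population. RD2 is the brightest gene in early precursors, and on the array of mature replicate 1 MT1C is the brightest.

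The set held 2 transcription factors with a symbol, WRKY6 and bHLH115. WRKY6, a WRKY factor known from senescence, defence and phosphate responses, had 4.61, 4.34 and 5.22 in the early sort, 6.04, 6.73 and 6.69 in the middle sort, 8.05, 8.23 and 8.06 in the late sort, 7.81, 7.55 and 6.94 in mature guard cells, and 6.15, 6.94 and 6.27 in whole epidermis. The lowest mature array equalled the highest epidermis array to 2 decimals, and the difference of 0.98 (SE 0.30) was not called (adjusted p = 0.0878 by limma). bHLH115, a basic helix-loop-helix factor of the iron deficiency response, was among the dimmest genes of the set, with means of 2.7 ± 0.08, 3.83 ± 0.27, 4.84 ± 0.52 and 4.26 ± 0.48 along the lineage and 4.2 ± 0.28 in the epidermis.

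SGP1, GAMMA-VPE and VPS20.1 encode a small GTP-binding protein, a cysteine protease of the vacuole and a subunit of the ESCRT-III complex that sorts membrane proteins into vesicles. SGP1 had 3.83, 2.82 and 2.50 in the early sort, 4.98, 4.87 and 4.98 in the middle sort, 6.37, 6.09 and 6.10 in the late sort, 6.35, 6.05 and 5.57 in mature guard cells, and 3.70, 4.52 and 3.93 in whole epidermis. Mature guard cells stood 3.84-fold above the epidermis (adjusted p = 0.0053 by limma). GAMMA-VPE had 3.95, 3.10 and 5.21 in the early sort, 6.06, 6.36 and 6.03 in the middle sort, 7.05, 7.44 and 7.55 in the late sort, 8.04, 7.75 and 7.35 in mature guard cells, and 6.32, 7.14 and 6.13 in whole epidermis. Its difference from the epidermis was 1.18 (SE 0.43; adjusted p = 0.144 by limma). VPS20.1 averaged 4.18 ± 0.61, 5.96 ± 0.10, 6.97 ± 0.25 and 6.43 ± 0.52 along the lineage and 5.82 ± 0.63 in the epidermis.

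RD2 and SAT32 were named for responses to drying and to salt. RD2 was bright throughout, at 7.31, 9.50 and 7.47 in the early sort, 9.25, 9.30 and 9.15 in the middle sort, 10.28, 10.61 and 10.61 in the late sort, 10.17, 10.13 and 9.96 in mature guard cells, and 10.21, 10.22 and 9.74 in whole epidermis. Early replicate 2 of RD2 lay above all 3 middle arrays, and its mature and epidermis arrays overlapped. SAT32 averaged 7.85 ± 0.32 in mature guard cells and 6.84 ± 0.45 in whole epidermis (SD, n = 3; 2.01-fold, adjusted p = 0.0378 by limma). That call was lost in 11 of 16 alternative fits, with 0.104, 0.055 and 0.107 when mature replicates 1, 2 and 3 were left out and 0.0506 and 0.133 without epidermis replicates 2 and 3.

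Mature guard cells mostly stood a little below late precursors in the 111 genes. The late arrays chose the set for high values, so these differences carry no test. The mature mean was below the late mean in 96 genes (86.5%, against 52.2% of all probe sets), and the median difference was -0.45, against -0.01 for all probe sets. It was within 1 of the late mean in 94 genes (84.7%, against 97.5% of all probe sets). It was lower by at least 1 in 16 (14.4%, against 1.14%) and higher by at least 1 in 1 (0.901%, against 1.36%). All mature arrays lay below all late arrays in 28 genes (25.2%) and above them in 3 (2.7%), against 8.02% and 8.03% of all probe sets. As a share of the climb from early to late precursors on the log2 scale, mature guard cells kept a median of 82.9%, with the middle of the genes between 75% and 93.5% (25th and 75th percentiles). Mature means were above the early means in all 111 genes and above the middle means in 100.

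The one gene that gained at least 1 was AT3G05730. It had 4.58, 2.46 and 3.27 in the early sort, 5.67, 5.13 and 6.39 in the middle sort, 7.73, 8.87 and 9.09 in the late sort, 11.25, 9.60 and 9.78 in mature guard cells, and 8.45, 7.84 and 8.40 in whole epidermis. No mature array overlapped with a late or an epidermis array, and the difference from the epidermis, 1.98 (SE 0.57), was not called (adjusted p = 0.0766 by limma). The next in order were AT5G62360 (0.93 above late), AT5G46730 (0.76), MT1C (0.75) and AT1G08050 (0.52). AT1G08050 was called against the epidermis (2.82-fold, adjusted p = 0.0426 by limma), and the call was lost in 11 of 16 alternative fits, from 0.0718 without mature replicate 3 to 0.154 without epidermis replicate 3 among those without 1 array.

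The greatest drop from late precursors to mature guard cells was that of AT2G19310, with 4.70, 3.74 and 1.85 in mature guard cells, against 5.34, 5.86 and 5.87 in late precursors. AT5G48570 (FKBP65, also ROF2) encodes a prolyl isomerase of the FK506-binding family, known from heat stress responses. It had 5.77, 8.55 and 8.90 in the early sort, 9.51, 10.71 and 9.26 in the middle sort, 10.63, 11.24 and 11.41 in the late sort, 10.27, 9.52 and 7.62 in mature guard cells, and 8.58, 7.71 and 6.82 in whole epidermis. The mature mean lay below the late mean by 3.88-fold, and the mature arrays spread widely. BOB1, a chaperone needed for development and tolerance of heat, had 3.82, 6.55 and 5.78 in the early sort, 6.21, 6.74 and 6.64 in the middle sort, 7.07, 7.76 and 7.97 in the late sort, 7.28, 6.16 and 4.52 in mature guard cells, and 4.48, 5.23 and 3.43 in whole epidermis.

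AT2G29500, AT2G19460 and AT2G20560 complete the 5 greatest drops with AT2G19310 and AT5G48570, at -1.94, -1.75 and -1.63 from late to mature means. Late and mature arrays overlapped in AT2G29500 and AT2G20560, but not in AT2G19460, AT2G19310 or AT5G48570. Among the 16 genes that dropped by at least 1, all mature arrays lay below all late arrays in 8. Mature replicate 3 was the lowest mature array in 13 of the 16 genes that dropped by at least 1, and in 67 of all 111. Epidermis replicate 3 was the lowest epidermis array in 14 of those 16 and in 77 of the 111. Late replicate 1 was the lowest late array in 14 of the 16 and in 81 of the 111. Replicates of 1 population thus differed in the same direction across many of the genes, with array medians over the set of 6.99, 6.78 and 6.52 in mature guard cells and 5.80, 6.14 and 5.15 in whole epidermis. These counts were not taken over all probe sets, and the 16 were picked by their late and mature means.

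**Figure D5:**
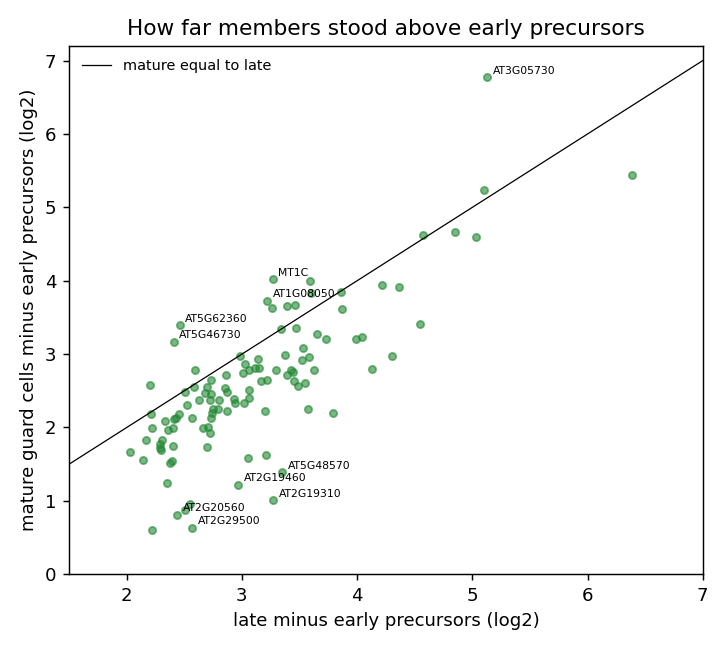
Each point is 1 of the 111 genes, placed by its log2 difference between late and early precursors (horizontal) and between mature guard cells and early precursors (vertical). Points on the line have equal late and mature means. Most lie a little below it, AT3G05730 lies above it, and the 5 greatest drops are labelled in the lower part.

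The epidermis lay in the middle of the climb. Its mean was below the early mean in 5 genes, between the early and middle means in 55, between the middle and late means in 49, and at or above the late mean in 2. The median difference from the epidermis was -1.54 in the early sort, 0.07 in the middle sort, 1.51 in the late sort, and 0.98 in mature guard cells. All probe sets listed to 1 gene had medians of 0.08, -0.07, -0.08 and -0.08 in the same stages. These comparisons share the epidermis arrays, and the first 3 share arrays with the rule.

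Known stomatal genes outside the set were read in the same comparison. Of the 4 measured stomatal lineage regulators, FAMA was higher in mature guard cells (16.6-fold, adjusted p = 5.49e-06 by limma) and EPFL9, a secreted peptide that promotes stomata and is made in the mesophyll, was lower. EPFL9 averaged 1.93 ± 0.17 in mature guard cells and 2.69 ± 0.46 in whole epidermis (adjusted p = 0.0486 by limma), close to the bound, and its call was lost in 10 of 16 alternative fits. SPCH and MUTE were not called.

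Of the 5 measured genes for guard cell transport and signalling, CHX20, a cation exchanger, and PME6, a pectin methylesterase of the guard cell wall, were higher and 0 were lower. CHX20 averaged 9.66 ± 0.26 in mature guard cells and 6.54 ± 0.14 in whole epidermis (adjusted p = 0.0025 by limma). PME6 averaged 4.79 ± 0.21 and 3.84 ± 0.52 in the same order (adjusted p = 0.0426 by limma, lost in 11 of 16 alternative fits). GC1 (8.81 ± 0.57 and 5.78 ± 0.46) was not called (adjusted p = 0.117 by limma), nor were BLUS1 and PATROL1. Of the 4 measured genes for the response to abscisic acid and dehydration, ALDH7B4 was higher (3.42-fold, adjusted p = 0.00453 by limma) and LTI30, COR47 and COR15A were not called. None of the measured genes in these lists belonged to the 111. However, FAMA (steps of 4.34 and 3.48) and CHX20 (1.74 and 2.91) met the rule and were left out by name.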

How the data were processed

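For each array the authors deposited log2 expression values of probe sets. Per the submitters' processing notes, the tools were RMA and affy, with no versions. The log base was taken from RMA's usual output and the values' range. There were 20956 probe sets, with array medians from 2.52 to 2.68. The probe annotation lists 12783 to 1 gene, 37 to several and none for 8136, and the TAIR10.1 gene table holds 12720 of the 12783. No genome build is given in the sources used here, so no coordinates are printed.

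A linear model over all 15 arrays was fitted with limma 3.58.1 (R 4.3.3), with 1 mean per population, leaving 10 residual degrees of freedom. The contrast of mature guard cells against epidermis used the moderated test, two-sided, with Benjamini-Hochberg adjustment over all probe sets and a threshold of 0.05. The code was checked on simulated data. The number of arrays limits the precision.

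The set and the gene lists (142 genes in 9 lists, 22 measured) were chosen with earlier results of these data known. Genes named are the 12 with the greatest climb, up to 12 called in each direction, 3 on each side of the threshold, 5 each with the greatest and least drop after late precursors, all with a symbol, and the measured list genes. Alternatives varied the arrays, weights, normalization, low-value filter, variance prior and replicate block.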

Additional observations from a re-analysis of the deposited data

How the results depend on the processing

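The set's difference between mature guard cells and epidermis kept its direction over the 16 alternative fits. The median log2 difference lay between 0.75 and 1.23, with 96 to 107 positive genes. Fits that changed only the other arrays, the estimate of spread or the filter keep this difference by construction (0.98, 106 genes). Only array weights, normalization and leaving out 1 mature or epidermis array could move it. The number of calls did not hold as well, and the cause was not tested. Members called higher numbered 41 without the early arrays, 32 with array weights, 12 after cyclic loess and 13 after quantile normalization, and 10 to 27 when 1 array was left out. Members called lower numbered 0 with only the mature and epidermis arrays, 0 with a trended robust prior, 2 without the early arrays, and 0 to 1 when 1 array was left out. All probe sets called higher numbered 1142 without the early arrays, 842 with array weights, 310 after quantile normalization and 212 to 527 when 1 array was left out. Those called lower numbered 150 with only the mature and epidermis arrays, 802 without the early arrays, 626 with array weights, 526 with 1 weight per group, 226 with late replicates 2 and 3 averaged, and 86 to 408 when 1 array was left out. The rule took 21 genes at a step of 1.5 and 231 at 0.75, as its construction requires, 62 after cyclic loess (61 of them among the 111), and 102 to 134 when 1 array was left out. Group medians gave 120 genes, 85 shared with the 111, and quantile normalization gave 78, 77 shared. The sign turned in at least 1 alternative for 15 of the 111 genes, 0 of them called, with differences of -0.15 to 0.56 in the fit over all arrays. Among the genes chosen by the naming rule these were GR1 (-0.05 after cyclic loess), RD2 (-0.04 after cyclic loess, -0.13 to 0.11 when 1 array was left out), bHLH115 (-0.18 after cyclic loess, -0.22 after quantile normalization, -0.17 to 0.31 when 1 array was left out) and AT2G29500 (-0.33 to 1.36 when 1 array was left out). With the replicate number as a block, 16 of the 20 higher calls remained. Deviations of same-numbered mature and epidermis arrays correlated at 0.059, 0.138 and 0.168, and 6 of 6 arrays correlated best with the array of their own number. The 6 matches depend on each other, since the deviations of 3 arrays are taken from their shared mean. They are at most a hint of pairing from the data, which the labels do not state. Since 1 of the 3 values was under 0.1, the arrays were not treated as pairs.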

Other observations

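The opposite pattern was rarer in the deposited values, and falls were not counted after other normalizations. Stepwise falls of at least 1 at both steps were met by 58 probe sets, 33 of them listed to 1 gene, whereas 244 probe sets rose, 126 of them with no single gene listed. For the 33 falling genes the median level was 6.81 in early precursors, 3.40 in mature guard cells and 2.87 in whole epidermis. In mature guard cells against the epidermis 0 of the 33 were called by limma, against 2.29% of all probe sets called higher and 1.62% lower. An unadjusted p under 0.05 by limma was met by 3 of the 33, against 4294 of all 20956 probe sets. The mature mean was above the epidermis mean in 27 of the 33 (81.8%, against 95.5% of the rising genes and 44.0% of all probe sets), with a median log2 difference of 0.34.

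The 111 rising genes were spread over all 5 nuclear chromosomes. Chromosome 5 held 36 of them (32.4%, against 22.7% of measured genes) and chromosome 3 held 11 (9.9%, against 20.4%), given as counts without a test. AT5G39580 and AT5G39590 are direct neighbours in the reference gene order, and both are among the genes whose arrays overlapped at a step. Another probe set of AT2G27390 did not show the climb, with means of 2.53 ± 0.09 in early, 1.99 ± 0.14 in middle and 1.82 ± 0.17 in late precursors, all at or below the bound of 2.68.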
